A study of Drosophila melanogaster with 6 samples.

Results

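The sites described here are AGO2 peaks that were listed in the Drosophila melanogaster S3 cell line and that lay well away from any AGO2 peak of the S2 line. A member is an S3 peak that overlapped no S2 peak and whose nearest edge was more than 5000 bp from every S2 peak on the same chromosome arm. There were 1002 such peaks among 3159 S3 peaks (31.7%, 95% exact binomial interval 30.1 to 33.4%), which is 71.2% of the 1407 S3 peaks without an S2 partner. They are called distant peaks below. They were chosen by the measured peak positions of both lists, so their number and their distance from S2 are descriptions and not findings.

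Argonaute 2 (AGO2) is the Argonaute protein that carries small interfering RNAs in flies and cuts RNAs that match them. It also associates with chromatin, and the series concerns its part at insulators, elements that limit contact between enhancers and promoters and that recruit zinc finger protein CTCF and its partner CP190. S2 and S3 are lines that Schneider established from embryos. Both were kept in M3 insect medium with yeast extract, bactopeptone and fetal bovine serum. The labels name no altered genotype and no treatment in either line.

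The series holds 6 samples, of which 3 are AGO2 chromatin immunoprecipitation libraries and 3 are input libraries. The values below come from 1 S2 and 1 S3 library, both made with the monoclonal antibody 9D6. Neither the inputs nor the S2 library made with another AGO2 antibody were used here. With 1 library per line in use there is no replicate error and no test between the lines. Peaks of a library are not replicates either, so classes of peaks are set side by side without a test. Intervals are at 95% and cover counting error only. Read depth is unknown, so whether a site missing from the S2 list was unbound or fell short of the threshold at the depth of that library cannot be told apart. Positions are on build dm3 and counted from 1, and peaks are named by position because no annotation or genome of that build was used here.

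Distant peaks were narrower than shared peaks at the median and had a higher FDR. Their median width was 1224.5 bp (interval of the median 1168 to 1289 bp), with quartiles of 819 and 2009 bp and a range from 118 to 8302 bp. S3-only peaks within 5000 bp of an S2 peak, of which there were 405, had a median of 1220 bp (1107 to 1296 bp). The 1752 S3 peaks that overlapped an S2 peak had a median of 1462 bp (1416 to 1524 bp). Overlap is itself more likely for a wide peak, so the width of shared peaks is not independent of the rule. Together the distant peaks covered 1.58 Mb, or 29.1% of all sequence under S3 peaks.

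The only strength given for a peak is the authors' false discovery rate (FDR), in percent. Of the distant peaks, 211 were listed at an FDR of 0 (21.1%, 18.6 to 23.7%), against 48.5% of all S3 peaks. Among S3-only peaks near an S2 peak the share was 25.2% (21.0 to 29.7%), and among shared peaks it was 69.5% (67.3 to 71.7%). At the other end, 219 distant peaks had an FDR above 1% (21.9%, 19.3 to 24.5%), against 11.9% of all S3 peaks. It was 17.8% (14.2 to 21.9%) of near S3-only peaks, an interval that overlaps that of distant peaks, and 4.91% of shared peaks. Distant peaks thus supplied 13.8% of the S3 peaks at an FDR of 0 and 58.1% of those above 1%. Their median FDR was 0.21%, with quartiles of 0.0625 and 0.70%.

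**Figure D1:**
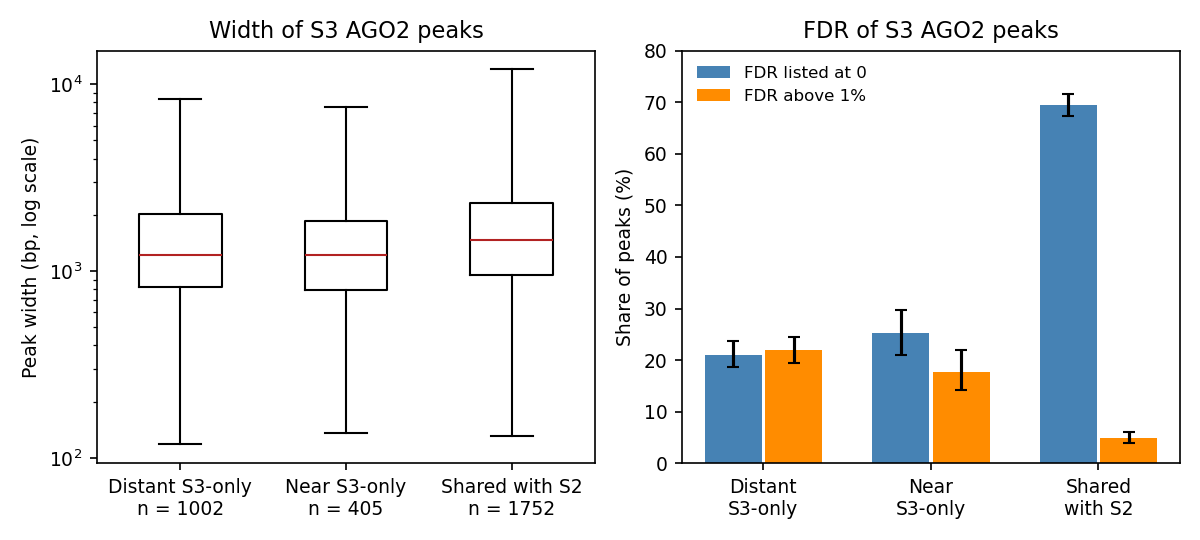
Left, width in bp on a log axis of distant S3-only, near S3-only and shared S3 peaks (box, quartiles and median; whiskers, full range). Right, the share of each class at an FDR of 0 and above 1%, with 95% exact binomial intervals; 21.1% of distant and 69.5% of shared peaks were at 0.

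Width also went with FDR inside the set. Distant peaks at an FDR of 0 had a median width of 1396 bp (1222 to 1510 bp), those above 0 and up to 1% had 1252.5 bp (1173 to 1333 bp), and those above 1% had 1046 bp (869 to 1123 bp). Shared peaks followed the same order, with 1519, 1382.5 and 1085.5 bp. At matched FDR the difference in median width between shared and distant peaks was therefore smaller than over all peaks. Near S3-only peaks followed the order only in part, with 1321.5, 1151 and 1169 bp, so those above 1% were not narrower than the middle class. Across the 1002 distant peaks the Spearman correlation of width with FDR was -0.14, given as a description of peaks that share 1 library.

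Broad peaks were present in the set. Widths of 5000 bp or more were found for 23 distant peaks (2.30%, 1.46 to 3.42%), against 2.98% of all S3 peaks. The broadest lay on 3R at 22694666 to 22702967, measured 8302 bp at an FDR of 1.69%, and was 69.2 kb from the nearest S2 peak. Next came a peak of 7178 bp on 2L at 9734773 to 9741950 (FDR 1.44%) and one of 7096 bp on X at 5780635 to 5787730 (FDR 0.15%). Separate peaks on 3R followed, of 6861 bp at 273089 to 279949 (FDR 0.14%) and of 6767 bp at 736138 to 742904 (FDR 0.70%). None of these 5 was at an FDR of 0, so the broadest distant peaks were not those with the lowest FDR.

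The widest distant peak at an FDR of 0 was between 4496 and 5296 bp on each large arm. On X it measured 5296 bp at 545648 to 550943 and was 29.7 kb from S2, and on 2L it measured 5096 bp at 2360852 to 2365947 and was 8.41 kb from S2. On 3L it measured 5044 bp at 625353 to 630396, 7.95 kb from S2. The 2R peak at 11839323 to 11844150 measured 4828 bp and was the most isolated of these 5, at 87.7 kb from S2. The 3R peak at 7165192 to 7169687 measured 4496 bp and was 7.46 kb from S2. At the narrow end, 89 distant peaks (8.88%) were under 500 bp, against 6.14% of all S3 peaks. The share was 8.89% among near S3-only peaks and 3.94% among shared peaks.

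The distance to S2 spread over a wide range. Its median was 25.8 kb, with quartiles of 12.2 and 52.1 kb, and 587 distant peaks (58.6%) were more than 20 kb away. A distance of more than 100 kb was reached by 77 peaks and of more than 200 kb by 14, or by 5 without a group at the end of 3L that is described below. The 3 peaks just inside the limit lay 5011, 5081 and 5119 bp from S2, on 3R, 2R and 2L, with widths of 928, 1318 and 1438 bp and FDR values of 0.16, 0.63 and 0.06%. The 3 just outside lay at 4957, 4958 and 4969 bp, on X, 3L and X, with widths of 598, 1011 and 555 bp and FDR values of 3.19, 0.14 and 0.16%.

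With all members counted, the share of distant peaks at an FDR of 0 was similar in every class of distance from S2. An FDR of 0 was listed for 20.7% of the 188 peaks at 5 to 10 kb (15.2 to 27.2%), 22.0% of the 227 at 10 to 20 kb, and 20.2% of the 321 at 20 to 50 kb. It was 21.7% of the 189 at 50 to 100 kb and 20.8% of the 77 beyond 100 kb (12.4 to 31.5%). Over all distant peaks the Spearman correlation with distance was 0.0039 for FDR and -0.0023 for width. Median width was 1140.5 bp at 5 to 10 kb, 1192 bp at 10 to 20 kb, 1304 bp at 20 to 50 kb and 1351 bp at 50 to 100 kb, with overlapping intervals for neighbouring classes. Beyond 100 kb it was 948 bp (823 to 1271 bp). Of the peaks in that class, 12 come from 1 place at the end of 3L, described below, and without them the median was 1137 bp (933 to 1648 bp). None of these 12 was at an FDR of 0, so the 16 peaks at 0 beyond 100 kb were all among the other 65. The similar share in the last class thus depends on counting that group.

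**Figure D2:**
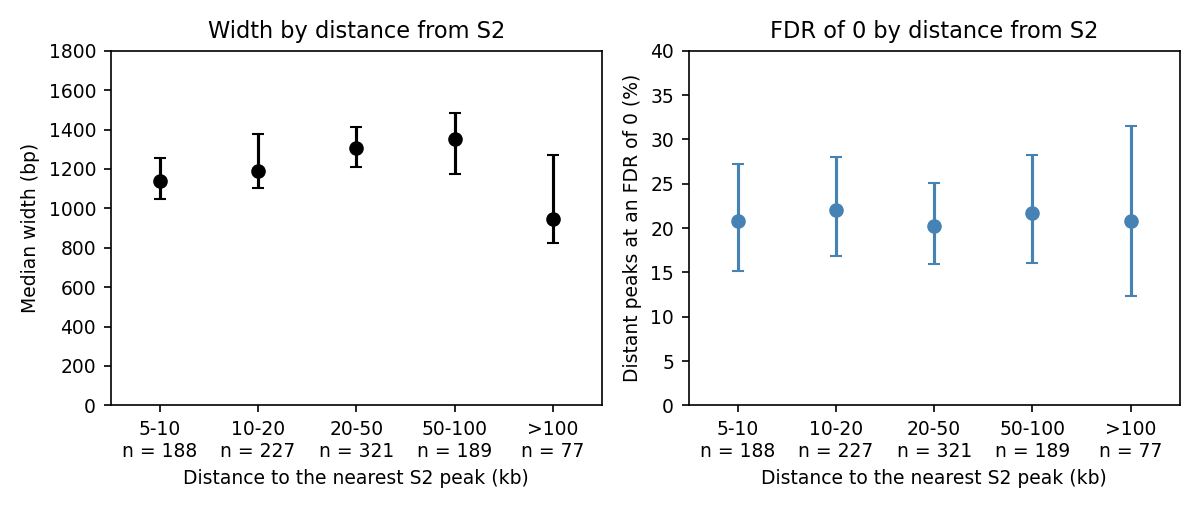
Median width in bp (left) and share at an FDR of 0 in percent (right) of distant peaks by distance to the nearest S2 peak in kb; bars are 95% intervals of the median (order statistics) and exact binomial intervals. The share at an FDR of 0 was between 20.2 and 22.0% in all 5 classes. The class beyond 100 kb includes 12 peaks from the end of 3L, none of them at 0.

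Peaks of 5000 bp or more made up 2 of the 77 beyond 100 kb (2.60%), close to the 2.30% of all distant peaks. The most remote peaks of the large arms measured between 224 and 2001 bp. On 2R a peak of 734 bp at 1304008 to 1304741 lay 273.5 kb from the nearest S2 peak, the greatest distance in the set, at an FDR of 4.32%. It was the sole distant peak in the longest S2-free gap, of 1567.9 kb, toward the centromere side of that arm. On 2L the most remote peak measured 933 bp at 10703163 to 10704095 and was 263.1 kb away (FDR 1.96%). On 3L it measured 224 bp at 24535518 to 24535741 and was 207.4 kb away (FDR 0.22%). The most remote X peak, 556 bp at 11908109 to 11908664, was at an FDR of 0 and 188.8 kb away. On 3R a peak of 2001 bp at 21117142 to 21119142 was 178.4 kb away, at an FDR of 1.53%.

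All arms carried distant peaks. There were 248 on X, 242 on 3R, 194 on 3L, 165 on 2R, 149 on 2L and 4 on the small chromosome 4. Their share of the S3 peaks of an arm was between 30.1% on 2L and 33.7% on 3R among the large arms, 31.4% on X and 30.8% on chromosome 4. Open sequence, meaning sequence more than 5000 bp from every S2 peak, made up 82.9% of X, 91.5% of chromosome 4 and between 84.9 and 85.5% of each other arm. Per Mb of open sequence X held 13.4 distant peaks, 3R 10.2, 3L 9.29, 2R 9.21, 2L 7.87 and chromosome 4 3.33. The ratio of X to the large autosomal arms was 1.45 per Mb of open sequence and 1.41 per Mb of arm. Distant peaks made up 31.4% of S3 peaks on X and 31.8% on these autosomal arms. The higher number per Mb on X was therefore that of the S3 list as a whole and not particular to distant peaks.

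Distant peaks on X were numerous per Mb, as S3 peaks there were as a whole, but narrow. Their median width was 954.5 bp (861 to 1057 bp), against 1346 bp (1257 to 1437 bp) on the large autosomal arms. The sequence they covered per Mb of open sequence was 1.04 times that of these arms. Widths under 500 bp made up 16.9% of distant X peaks (12.5 to 22.2%), and 4.24% of those on 2R. The 2R peaks were the widest of the large arms, with a median of 1691 bp (1493 to 1992 bp) and 8 peaks of 5000 bp or more. Near and shared peaks of 2R were not summarised apart, so whether this width is particular to distant peaks was not tested. Between X and the autosomes shared peaks showed the same order, with medians of 1088 and 1595 bp. Narrower peaks on X were thus seen at shared sites as well. An FDR of 0 was listed for 18.5% of distant peaks on X (13.9 to 24.0%) and for 21.9% on the autosomes.

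**Figure D3:**
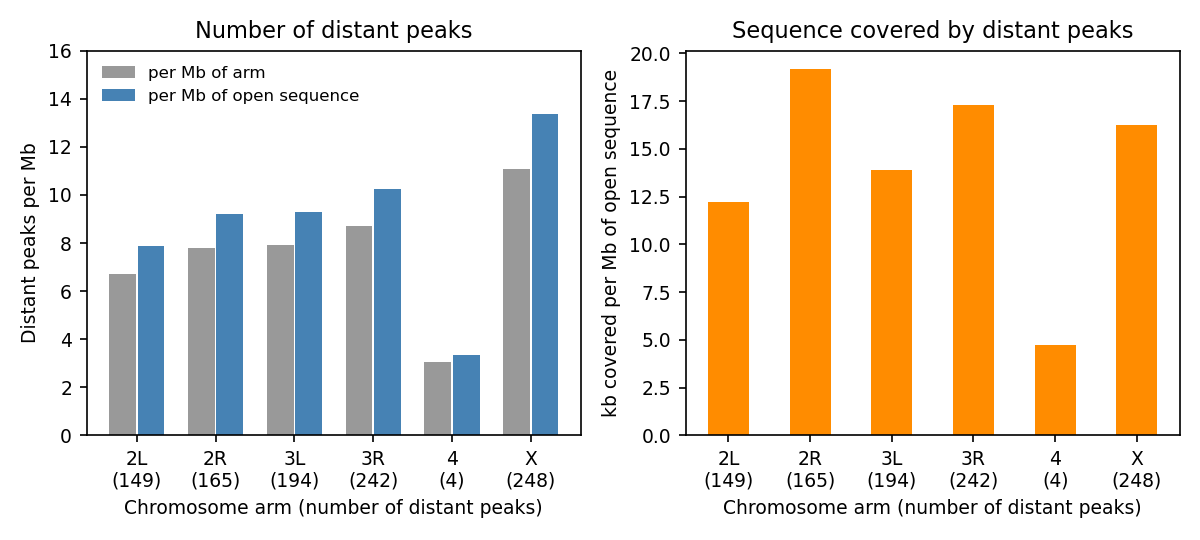
Left, distant peaks per Mb of arm and per Mb of open sequence for each chromosome arm. Right, kb covered by distant peaks per Mb of open sequence; X was highest in number, at 13.4 per Mb, and 2R in sequence covered.

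On chromosome 4 the 4 distant peaks were scattered. A peak of 1672 bp lay at 89866 to 91537 (FDR 1.47%), and a pair of 501 and 474 bp lay at 445255 to 445755 and 448833 to 449306 (FDR 2.08 and 4.12%). The last, of 3002 bp at 1289861 to 1292862, was the one at an FDR of 0.

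The rule allows distant peaks wherever S2 peaks are sparse, so their number was set beside the sequence open to them. Open sequence measured 101.1 Mb of the 119.3 Mb spanned by both lists and held 9.91 distant peaks per Mb. The flanks within 5000 bp of S2 peaks measured 14.9 Mb and held 27.2 S3-only peaks per Mb. S3-only peaks were therefore denser beside S2 sites than away from them, although most of them in number lay away. In the opposite direction, 195 S2 peaks (9.36% of 2084, 8.14 to 10.7%) lay more than 5000 bp from every S3 peak. That is 2.11 per Mb of the 92.4 Mb open to them. Their median width was 1140 bp, close to that of distant S3 peaks, and 6 of them (3.08%) were at an FDR of 0, against 23.3% of all S2 peaks. FDR values of separate libraries are not comparable and the S3 list is the longer one, so these counts describe the lists and not the lines.

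Long S2-free gaps held distant peaks more often than short ones, but not in proportion to their length. There were 1296 gaps of more than 10 kb between neighbouring S2 peaks, and 537 of them (41.4%, 38.7 to 44.2%) held at least 1 distant peak. The share rose from 8.28% of the 302 gaps of 10 to 25 kb to 29.7% at 25 to 50 kb, 48.8% at 50 to 100 kb, 67.9% at 100 to 200 kb and 78.4% (70.6 to 84.9%) of the 139 gaps over 200 kb. Per 100 kb of open sequence the number fell along the same classes, from 1.62 to 1.54, 1.21, 0.98 and 0.74. In the longest class 30 gaps held no distant peak. The longest empty gaps were on 3L, from 23482724 to 24327800 (845.1 kb), from 22942312 to 23482446 (540.1 kb) and from 17025962 to 17479978 (454.0 kb), and none of the 3 held any S3 peak.

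**Figure D4:**
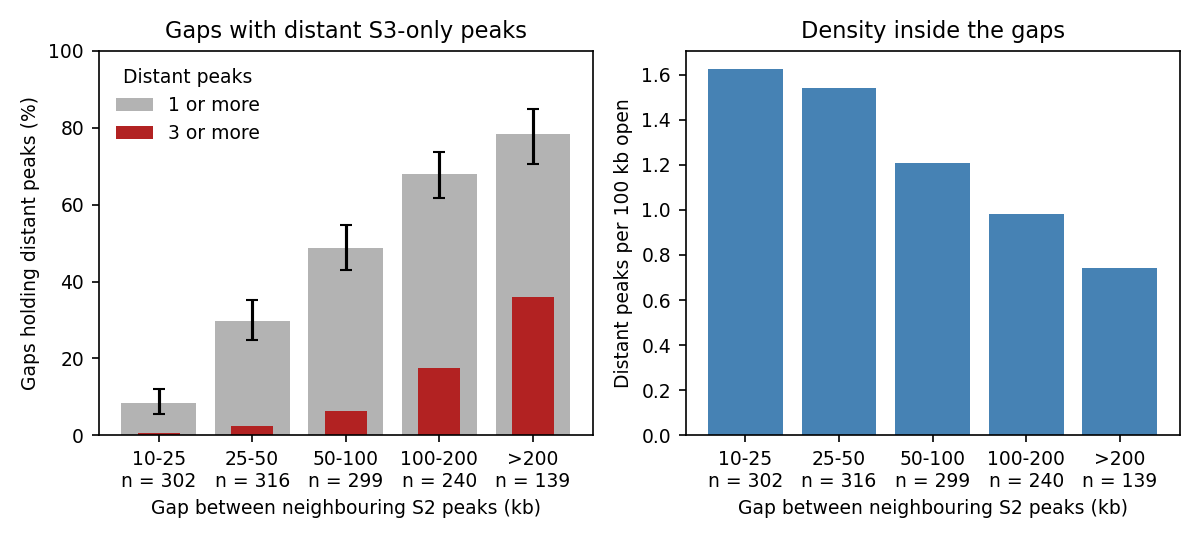
Left, share of S2-free gaps holding 1 or more (grey, with 95% exact binomial intervals) and 3 or more (red) distant peaks, by gap length in kb. Right, distant peaks per 100 kb of open sequence in the same gaps, which fell from 1.62 in the shortest to 0.74 in the longest class.

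Distant peaks were spaced irregularly. The median gap from a distant peak to the nearest other one was 27.2 kb (23.1 to 31.3 kb), but the quartiles were 5.30 and 75.0 kb. A neighbour within 1 kb was found for 139 peaks (13.9%) and one at 1 to 5 kb for 107 (10.7%), while 348 (34.7%) had none within 50 kb. The median was lowest on X, at 20.3 kb, and lay between 26.4 and 29.7 kb on the other large arms. Distant peaks were thus a mixture of close groups and isolated sites. For 108 of the 139 peaks the neighbour was closer than 500 bp. The spacing of other S3 peaks was not measured, so these values are not set against the S3 list.

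The closest neighbours were separated by a few bases. On 2L, peaks of 3735 and 988 bp at 19545465 to 19549199 and 19549204 to 19550191 were 4 bp apart, with FDR values of 0.16 and 0.57%. On 3R, peaks of 1285 and 826 bp starting at 16848275 were 9 bp apart and together spanned 2120 bp. On 3L, peaks of 1171 and 1081 bp starting at 21217534 were 11 bp apart and spanned 2263 bp. The other close pairs, 9 and 22 bp apart, belonged to the group at the end of 3L. Joining peaks closer than 500 bp in both lists left 938 distant sites with a median gap of 34.5 kb.

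Many distant peaks stood in runs. A run is a set of 3 or more consecutive distant peaks with no S2 peak between them, and 471 peaks (47.0%, 43.9 to 50.2%) formed 122 such runs. A further 226 peaks formed 113 pairs, and 305 (30.4%) stood alone between their flanking S2 peaks. Most runs were short: 68 held 3 peaks and 34 held 4, while 20 held 5 or more. X had 32 runs, 3R 27, 2R and 3L 21 each, 2L 20 and chromosome 4 had 1. The share of the distant peaks of an arm found in runs was between 43.3% on 3L and 51.0% on 2L among the large arms.

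Being in a run went with little difference in the peaks themselves. Members of runs had a median width of 1185 bp (1103 to 1256 bp) and those outside runs 1284 bp (1172 to 1394 bp). An FDR of 0 was listed for 22.9% (19.2 to 27.0%) and 19.4% (16.1 to 23.0%). For both measures the intervals overlapped, which does not show that the classes are equal. Within a run the widest peak was a median of 2.80 times as wide as the narrowest. Across the 462 pairs of neighbours with no S2 peak between them, widths had a Spearman correlation of 0.25 and FDR values one of 0.020. In 22 of these pairs both peaks were at an FDR of 0, in 152 one of them was, and in 288 neither was. Over all distant peaks 21.1% were at an FDR of 0. Whether peaks at 0 stood together in pairs or runs more often than that share gives was not tested. Of the runs, 51 held no peak at an FDR of 0, 37 held both a peak at 0 and one above 1%, and 2 consisted of peaks at 0 alone.

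These 2 runs, and the compact runs of the next paragraph, were singled out after their values were seen. On 3R, 3 peaks of 788 to 1147 bp lay between 2770248 and 2818081, a stretch of 47.8 kb inside an S2-free gap of 69.1 kb. On X, 3 peaks of 877 to 2751 bp lay between 2953500 and 2993755, a stretch of 40.3 kb in a gap of 136.8 kb.

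The stretches covered by runs had a median length of 81.5 kb, from the first start to the last end, with quartiles of 35.1 and 137.5 kb. Together they made up 12.2 Mb, or 10.2% of the span of the lists. Peaks filled a median of 6.96% of a stretch, so a long stretch was mostly sequence without an S3 peak. A few runs were compact instead. On 3R, 3 peaks at 12902745 to 12907355 filled 94.7% of 4.61 kb, at FDR values from 0.16 to 1.56%. On 2R, 3 peaks at 12466748 to 12473453 filled 90.4% of 6.71 kb, 2 of them at an FDR of 0. On X, 3 peaks at 4830161 to 4834871 filled 71.5% of 4.71 kb. On 3R, 4 peaks of 922 to 1236 bp at 12637307 to 12645883 filled 51.3% of 8.58 kb.

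The longest stretch lay on 3R from 18607017 to 19001814, with 8 peaks in 394.8 kb inside an S2-free gap of 430.9 kb. With S2 peaks limited to an FDR of at most 1%, which leaves fewer S2 peaks to divide the arms, the longest stretch was 687.0 kb. The peaks of the 3R stretch measured 509 to 2740 bp, and 4 of them were at an FDR of 0, namely the first 2 and the last 2. The spacing was uneven: a gap of 233.5 kb separated the second peak from the third, and the last 6 peaks lay toward the right end of the stretch. The second stretch, of 359.4 kb on chromosome 4, held the 3 peaks of 474 to 1672 bp named above. The third, on 2R from 1669016 to 1990974, held 5 peaks of 1397 to 3190 bp in 322.0 kb, of which 2 were at an FDR of 0. On 2L, 4 peaks of 902 to 2064 bp spread over 317.5 kb from 10457185 to 10774687, again with 2 at an FDR of 0. On 3L, 4 peaks of 559 to 1648 bp spread over 317.0 kb from 6990287 to 7307292, none at an FDR of 0.

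Where a gap of more than 20000 bp was taken to end a run, 55 runs with 19.7% of the distant peaks remained, and the longest stretch was 52.5 kb. That stretch lay on 2R from 20897692 to 20950196, with 4 peaks of 1183 to 3313 bp at FDR values from 0 to 0.39%. The next, also on 2R from 20255090 to 20302824, held 3 peaks of 2626 to 4936 bp in 47.7 kb and was 23.6% covered. The lengths of the longest stretches therefore depend on allowing wide gaps inside a run.

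**Figure D5:**
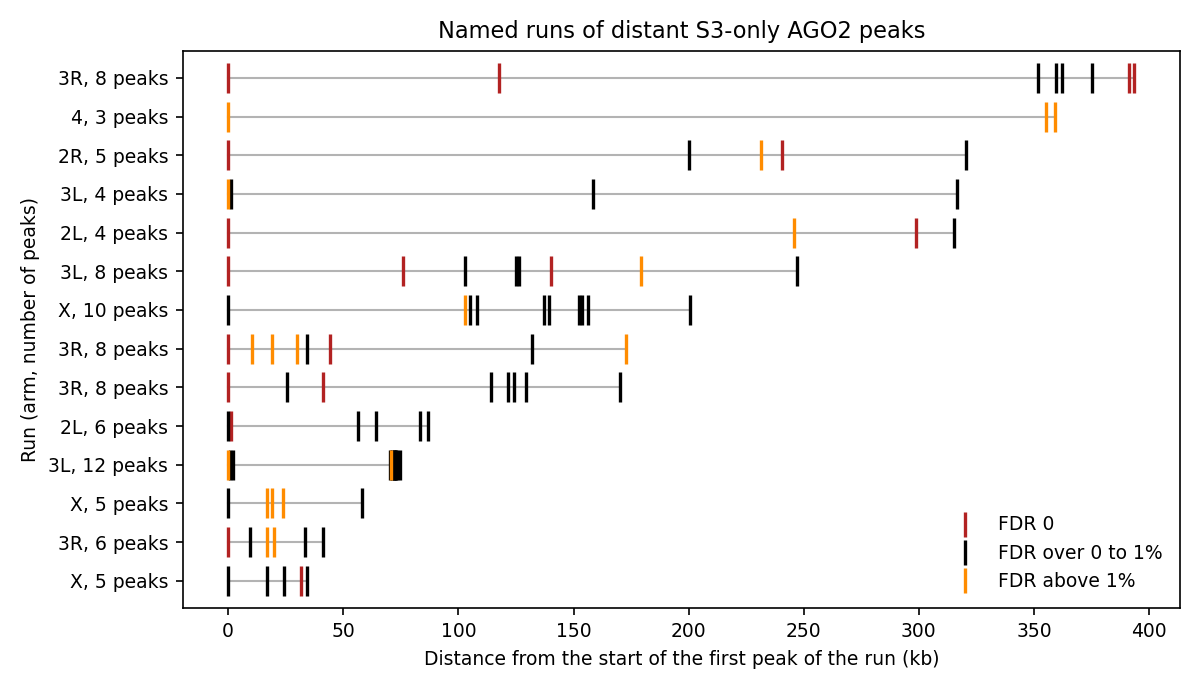
The 14 named runs, each drawn from the start of its first peak in kb; a tick is a distant peak, coloured by FDR, and its width is not drawn. In the longest run, on 3R, 2 peaks are followed by a gap of 233.5 kb and 6 more peaks, and the 12 peaks of the 3L run form 2 tight groups.

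The run with the most peaks was unlike the others. It lay at the end of 3L, from 24460983 to 24535741, beyond the last S2 peak of the arm, so it has an S2 peak on the left side alone, at 132.9 kb. All 12 of its peaks were narrow, from 140 to 684 bp with a median of 352 bp, and none was at an FDR of 0 (range 0.14 to 1.96%). They fell into 2 groups: 3 peaks in 2.71 kb, and 67.5 kb farther on 9 peaks in 4.55 kb, from 24531193 to 24535741, which filled 65.4% of that stretch. It was also the densest of the runs of 5 or more, at 1.61 peaks per 10 kb. Joining peaks closer than 500 bp left 5 sites in place of the 12 peaks, and 2 in place of the last 9.

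The next largest run held 10 peaks on X, from 15239100 to 15440115, with widths of 341 to 2203 bp and a median of 1044.5 bp. None of the 10 was at an FDR of 0, and their FDR values ran from 0.11 to 1.99%. From first start to last end it spanned 201.0 kb of an S2-free gap of 219.5 kb, ending 7.84 kb from the S2 peak on its right. Its peaks covered 5.54% of that stretch, and 102.3 kb separated the first peak from the second. Runs of 8 peaks were found on 3R from 9250180 to 9421508 (171.3 kb, 2 at an FDR of 0), on 3R from 7774094 to 7947625 (173.5 kb, 2 at 0 and 4 above 1%) and on 3L from 21092444 to 21340661 (248.2 kb, 3 at 0). Their median widths were 1259.5, 706 and 1235 bp. Each of the runs of 8 held peaks at an FDR of 0 beside peaks above 0.

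Among runs of 5 or more, the densest after the 3L end was on 3R from 10382722 to 10424369, with 6 peaks of 478 to 3224 bp in 41.6 kb, 19.6% of it covered. On X, 5 peaks of 415 to 1052 bp lay within 35.0 kb from 20881798 to 20916842, close to the right border of an S2-free gap of 291.6 kb. Another 5 on X, from 13573886 to 13634526, spread over 60.6 kb, and 3 of them had an FDR above 1%. On 2L, 6 peaks of 773 to 3937 bp lay within 87.8 kb from 19462359 to 19550191, and their FDR values were all at 0.57% or below.

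Of the 121 runs with an S2 peak on either side, 79 had both borders formed by an S2 peak that overlapped an S3 peak. In 39 runs 1 of the borders was such a shared site, and in 3 neither was. In all, 197 of the 242 borders (81.4%) were shared sites, against 85.7% of all S2 peaks, so the borders were near the share of the whole S2 list.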

How the data were processed

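The authors deposited 1 list of peaks per library, called separately for the S2 and the S3 library and not pooled. Per the file headers, the lists hold peaks at an FDR of 5%, and the last column was read as that FDR in percent. Build dm3, Bowtie (0.12.5) and MACS (1.3.7.1) are named in the submitters' processing notes, without roles. Depth, read filters and the background library are not given in the sources at hand. Peak number, width and division depend on a library's depth.

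Python 3.11.15, numpy 2.4.6, pandas 2.3.3, scipy 1.17.1 and matplotlib 3.10.9 were used. Distances are the bases between the nearest edges, and an overlap of 1 bp made a peak shared. The span of an arm was its largest peak end in either list. Shares have exact binomial (Clopper-Pearson) intervals and medians order-statistic intervals. The code was tested on simulated lists. Other distance limits, FDR limits, joined peaks and run definitions were tried as alternatives. Peaks were named by rule: the widest at an FDR of 0 and the most remote on each large arm, all on chromosome 4, the 5 widest, the 5 closest pairs, 3 on each side of the limit, and the 5 runs with the most peaks, the longest stretch and the highest density. The members and these rules were chosen with earlier results of these data known. Genes and sequences were not used here for want of a dm3 genome.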

Additional observations from a re-analysis of the deposited data

How the results depend on the processing

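Of 66 values recomputed under other settings, 47 stayed within their interval or, for counts and the longest stretch, within 1.5 times. Requiring more than 20000 bp from S2 left 587 distant peaks, 71 runs and a median gap of 32.1 kb, and requiring more than 10000 bp gave a gap of 33.4 kb. With S3 peaks at an FDR of at most 1%, the share at an FDR of 0 was 26.9% by construction, the gap 34.6 kb and the share in runs 39.6%. With S2 peaks at an FDR of at most 1%, 27.6% of distant peaks lay on X, the gap was 20.2 kb, 60.5% stood in runs and the longest stretch was 687.0 kb, since fewer S2 peaks divide the arms. Joining peaks closer than 500 bp gave a median width of 1305 bp, a gap of 34.5 kb and 41.3% in runs. Ending a run at a gap over 20000 bp left 55 runs, 19.7% of peaks in runs and a longest stretch of 52.5 kb, and runs of 5 or more numbered 20 with 13.1% of peaks. Leaving out the 12 peaks at the end of 3L, a setting chosen after seeing the data, gave 990 peaks, a median width of 1237 bp and 46.4% in runs. No paired analysis was possible because 1 library per line was used here. Depth is unknown, so no lower limit of detection can be given for S2.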

Other observations

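Distant peaks were counted over bins of 1 Mb, beside all S3 peaks of a bin. Over the whole S3 list, 31.7% of peaks were distant. The 117 full bins held a median of 8 distant peaks, with quartiles of 6 and 11, and 2 bins held none. The highest count was 20, in the bin from 12 to 13 Mb on 3R, beside 57 S3 and 38 S2 peaks in all. Of the next bins, the one from 15 to 16 Mb on X held 18 distant peaks among 32 S3 peaks and 14 S2 peaks. The X bins from 13 to 14 Mb, 1 to 2 Mb and 8 to 9 Mb held 17, 16 and 16, among 49, 39 and 42 S3 peaks. The top 3R bin was thus rich in other S3 peaks and in S2 peaks as well. In the X bin at 15 Mb most S3 peaks were distant.

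The 1 Mb of listed sequence nearest the centromere was set beside the rest of each large arm. On 3L all 12 S3 peaks there were distant, against 29.6% on the rest of the arm. They are the group at the end of that arm, beyond its last S2 peak. On 2R there was no S3 peak. On 3R, 10 of 21 S3 peaks there were distant (47.6%, against 33.2% on the rest of the arm). On 2L it was 5 of 15 (33.3%, against 30.0%), and on X 2 of 11 (18.2%, against 31.6%). Distant peaks of these windows were wider at the median than the rest on 3R, at 1926.5 against 1319.5 bp. They were also wider on 2L (1558 against 1219 bp), but narrower on 3L (352 against 1226 bp) and X (753 against 954.5 bp). Over all large arms the medians were 881 and 1230 bp. These windows hold few peaks, and no difference between them was tested.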
